A study of Mus musculus with 12 samples.

Results

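The genes examined here were 10 signals known for timing the hair cycle: the fibroblast growth factors Fgf18, Fgf5, Fgf7 and Fgf10, the bone morphogenetic proteins Bmp2, Bmp4 and Bmp6, and the secreted antagonists Nog, Fst and Sostdc1. They were chosen by gene symbol, and every probe set annotated to 1 of these symbols was kept, which gave 14 probe sets for 10 of the 18193 genes on the array. All 14 were tested, since no filter on low values was used. Skin came from C3H/HeJ mice with alopecia areata, an autoimmune hair loss that had been induced in all mice of all groups by grafting skin from an alopecic C3H/HeJ donor, and treatment began once the disease was established. The 4 groups were baricitinib week 12, baricitinib week 0, vehicle week 12 and vehicle week 0. Baricitinib is an inhibitor of the kinases JAK1 and JAK2 and was applied to the skin in topical form, while control mice received the vehicle. Each treatment had 3 mice, numbered as replicates 1 to 3, and each mouse gave skin at both times, so there were 12 Affymetrix arrays. An array measured a whole skin biopsy, in which fewer cells of a type and less RNA per cell cannot be told apart.

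Hair follicles pass through growth (anagen), regression (catagen) and rest (telogen). BMP signals hold the stem cells of the resting follicle quiet, and antagonists that bind BMPs in the space between cells, together with FGFs from the dermal papilla, help to start a new growth phase. In mice, Fgf18 is made in the resting follicle and prolongs rest, Fgf5 ends growth, and Fgf7 and Fgf10 are dermal papilla factors that act on the follicle epithelium.

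Of the 10 genes, Fgf18 rose in baricitinib week 12 skin in both comparisons of that group, and Bmp2 was higher there than in vehicle week 12 skin. Fgf18 was 3.87 log2 units higher in baricitinib week 12 skin than in baricitinib week 0 skin. Its signal outside baricitinib week 12 skin lay under the array median and was not shown to be above background, so no exact fold is given. Bmp2 was 2.73-fold higher in baricitinib week 12 skin than in vehicle week 12 skin. No other probe set of the 10 genes passed an adjusted p of 0.05 in either comparison, and none passed it between vehicle week 12 and vehicle week 0. The confidence intervals of several of these genes still allowed differences of 1 log2 unit or more.

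Because Fgf18 was called in both comparisons, the stretch before its start site is shown. RefSeq promoters were given for 6 of the 10 genes, which were Fgf18, Fgf5, Fgf7, Fgf10, Bmp4 and Bmp6. The 250 bases before the Fgf18 start lie at chr11:33147401-33147650 of GRCm38.p6 on the minus strand and are written 5′ to 3′, with each CpG, a C followed by a G, in capitals:
Fgf18 promoter: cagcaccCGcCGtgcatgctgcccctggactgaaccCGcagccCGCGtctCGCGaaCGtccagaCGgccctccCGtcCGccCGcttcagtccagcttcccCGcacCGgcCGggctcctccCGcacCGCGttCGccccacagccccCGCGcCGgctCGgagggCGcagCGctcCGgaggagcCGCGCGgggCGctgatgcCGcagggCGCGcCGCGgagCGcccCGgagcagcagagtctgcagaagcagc
This stretch holds 37 CpG and is 77.2% G or C. With the first 50 transcribed bases added, the 300 bases hold 47 CpG and are 78.7% G or C, against medians of 7 CpG and 52.7% over the 32851 mouse promoters of the same length. Both strands of the 300 bases were searched for 3 motifs, and none was found in the Fgf18 promoter. These were the GAS element of STAT dimers (TTCNNNGAA, in 8.3% of all promoters), the ISRE of interferon-activated STAT complexes (TTTC, any pair of bases and TTTC again, in 3.44%) and the core of the Wnt-responsive TCF/LEF factors (CTTTG, in 53.9%). These shares were not matched for G and C content, so the absence of the motifs from the Fgf18 promoter cannot be weighed against them. The 2 STAT motifs were found in none of the 6 promoters, and the TCF/LEF core was found in those of Fgf5, Fgf7 and Fgf10. Bmp2 had no promoter to search.

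Before the values, the arrays are described briefly. Their median log2 level lay between 5.16 and 5.35, and no pair was identical. Baricitinib week 0 replicate 2 and baricitinib week 12 replicate 1 stood apart by the lowest mean correlations with the other arrays (0.941 and 0.946, with a highest of 0.973 among all arrays). The SD of the log2 values over all probe sets was 2.56 and 2.61 on these 2 arrays, and 2.73 to 2.85 on the others. The difference between 3' and 5' control probe sets of Gapdh and beta-actin, a log2 measure of RNA quality in which a high value means loss of the 5' end, was 3.45, 1.27 and 1.31 in baricitinib week 12 skin and 3.19, 4.10 and 2.55 in baricitinib week 0 skin. The vehicle arrays had 2.97, 3.10 and 3.58 at week 12 and 1.23, 3.67 and 4.08 at week 0. The study's methods state that 1 baricitinib array at each time failed quality control, without naming them. They also list 1 control array at baseline, without clearly stating its experiment. Since each group of 3 mice has 3 deposited arrays, those arrays may be among the 12. The 3' to 5' difference was low on baricitinib week 12 replicates 2 and 3 and on vehicle week 0 replicate 1. The labelled tissue was checked with epidermal markers of skin. The mean log2 level of Krt5, Krt14, Krt1, Krt10 and Trp63 was 12.2 to 12.7 in baricitinib week 12 skin and 12.2 to 12.5 in baricitinib week 0 skin. Vehicle skin had 12.6 at week 12 and 12.3 to 12.6 at week 0, and none of the 5 was called in either comparison of baricitinib week 12 skin (0 at an unadjusted p under 0.05, limma).

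**Figure D1:**
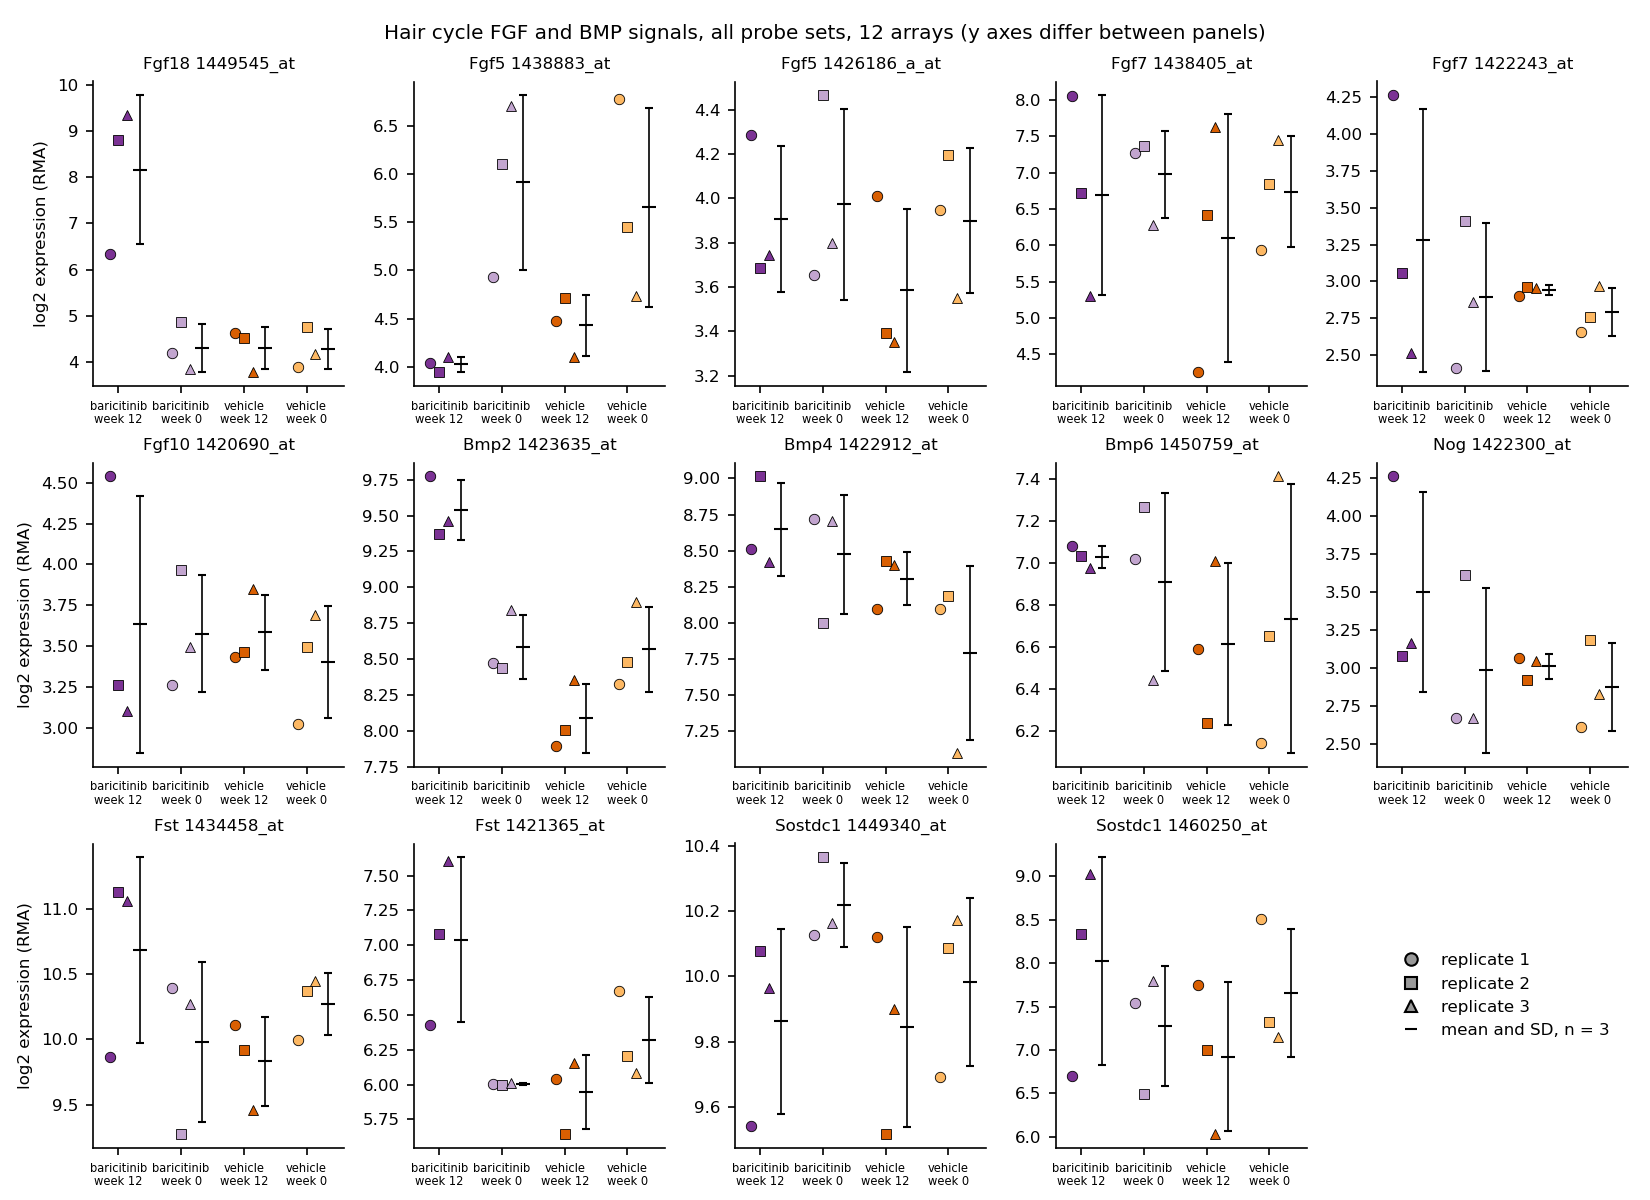
Log2 expression (y axis, RMA values) of the 14 probe sets of the 10 genes on each of the 12 arrays, with groups along the x axis, replicates 1 to 3 as separate symbols and the mean with its SD (n = 3) beside them. Fgf18 at 6.34 to 9.36 in baricitinib week 12 skin lies above all 9 other arrays, and Bmp2 at 9.37 to 9.77 in the same skin also lies above all others.

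Fgf18, the growth factor of the resting follicle, had log2 values of 6.34, 8.80 and 9.36 in baricitinib week 12 skin and 4.20, 4.86 and 3.84 in baricitinib week 0 skin. The values were 4.62, 4.51 and 3.78 in vehicle week 12 skin and 3.90, 4.76 and 4.17 in vehicle week 0 skin. Every baricitinib week 12 array lay above the other 9, all of which were under the median of their own array, and replicate 1 was the lowest of the 3 high arrays. The group means were 8.17 ± 1.61, 4.30 ± 0.52, 4.30 ± 0.46 and 4.27 ± 0.44 for baricitinib week 12, baricitinib week 0, vehicle week 12 and vehicle week 0 skin (SD, n = 3 each).

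Baricitinib week 12 minus week 0 was 3.87 on the log2 scale for Fgf18 (SE 0.64, 95% confidence interval 2.47 to 5.26, limma with Benjamini-Hochberg adjustment over 45037 probe sets, adjusted p = 0.0176). In the 3 mice the change was 2.14, 3.95 and 5.52. Baricitinib minus vehicle at week 12 was 3.87 as well (SE 0.64, limma adjusted p = 0.0248). These 2 comparisons share the baricitinib week 12 arrays. The vehicle mice changed by 0.73, -0.25 and -0.39, with a mean of 0.03 (95% confidence interval -1.37 to 1.42). The change with baricitinib exceeded the change with vehicle by 3.84 (SE 0.90, 95% confidence interval 1.87 to 5.82), which did not pass the test over all probe sets (limma adjusted p = 0.281).

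Both calls of Fgf18 ended in fits of only the groups compared (adjusted p = 0.122 against week 0 and 0.134 against vehicle), and single arrays decided them as well. The call against week 0 was lost without any 1 of 4 arrays, which were baricitinib week 12 replicate 2 or 3 and baricitinib week 0 replicate 1 or 3 (adjusted p 0.0623 to 0.0899). The call against vehicle was lost without baricitinib week 12 replicate 2 or 3 or any 1 of the vehicle week 12 arrays (0.0847 to 0.112). Over all fits with 1 array left out, whether the call was kept or lost, both differences stayed between 3.27 and 4.79. Without both arrays of lowest correlation the difference was 5.07 against week 0 (adjusted p = 0.00302) and 4.78 against vehicle (adjusted p = 0.00225), and the change with baricitinib then exceeded that with vehicle by 5.04 (adjusted p = 0.0188). Each baricitinib group then lacked 1 array, and the one left out at week 12 was its lowest for Fgf18. Calls over all probe sets in these 3 comparisons then numbered 860, 1008 and 35, against 557, 261 and 0 with all arrays. The 2 highest Fgf18 arrays were also 2 of the 3 arrays with a low 3' to 5' difference. The third of these, vehicle week 0 replicate 1, had an Fgf18 value of 3.90. With that difference as a covariate Fgf18 was 3.52 higher in baricitinib week 12 than in baricitinib week 0 skin (adjusted p = 0.0209).

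Fgf5, which ends the growth phase and whose loss gives mice abnormally long hair, was measured by a pair of probe sets. The brighter, 1438883_at, had log2 values of 4.04, 3.94 and 4.10 in baricitinib week 12 skin and 4.93, 6.10 and 6.71 in baricitinib week 0 skin. It had 4.47, 4.72 and 4.10 in vehicle week 12 skin and 6.78, 5.45 and 4.74 in vehicle week 0 skin. Within each treatment the week 12 arrays lay below the week 0 arrays without overlap, and all 6 mice had a lower value at week 12. The share of all probe sets that fell in all 6 mice was not counted. This probe set was under the array median on 8 arrays, among them every week 12 array, where low signal limits the size of a difference.

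The Fgf5 difference did not pass the test in either treatment. It was -1.89 for baricitinib week 12 minus week 0 (SE 0.51, 95% confidence interval -3.0 to -0.77, limma adjusted p = 0.113) and -1.23 for vehicle week 12 minus week 0 (SE 0.51, 95% confidence interval -2.34 to -0.11, limma adjusted p above 0.99). The 2 changes differed by -0.66 (95% confidence interval -2.24 to 0.92, limma adjusted p = 0.970). At week 12 baricitinib minus vehicle was -0.40 for Fgf5 (95% confidence interval -1.52 to 0.71). Baricitinib week 12 against week 0 passed without vehicle week 0 replicate 1 (adjusted p = 0.0479) and with the 3' to 5' difference as a covariate (-2.38, adjusted p = 0.0227). These fits called 763 and 1763 of all probe sets, against 557 with all arrays and no covariate. The dimmer probe set, 1426186_a_at, was under the array median on all 12 arrays and ranged from 3.69 to 4.28 in baricitinib week 12 skin and 3.66 to 4.47 in baricitinib week 0 skin. The values of vehicle skin were 3.35 to 4.01 at week 12 and 3.55 to 4.20 at week 0. The baricitinib week 12 minus week 0 difference of this probe set was -0.07 (95% confidence interval -0.73 to 0.59).

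Fgf7 and Fgf10, which signal from mesenchyme to epithelium through the same receptor form, showed no called difference. The brighter Fgf7 probe set, 1438405_at, had 8.05, 6.72 and 5.30 in baricitinib week 12 skin and 7.27, 7.37 and 6.28 in baricitinib week 0 skin. In vehicle skin it was 4.26, 6.42 and 7.63 at week 12 and 5.93, 6.84 and 7.45 at week 0. All 4 groups overlapped, and the spread within both week 12 groups (SD 1.37 for baricitinib and 1.71 for vehicle) was wider than within the week 0 groups (0.60 for baricitinib and 0.76 for vehicle). Baricitinib week 12 minus week 0 was -0.28 for Fgf7 (95% confidence interval -2.11 to 1.54), so that a change of a log2 unit in either direction was within the error. The second Fgf7 probe set, 1422243_at, and the only one of Fgf10, 1420690_at, were under the array median on all 12 arrays. Both were highest on baricitinib week 12 replicate 1, with log2 values of 4.26 for Fgf7 and 4.54 for Fgf10, and were at 2.41 to 3.41 (Fgf7) and 3.02 to 3.97 (Fgf10) on the other arrays.

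Bmp2, a BMP that is made in and around the resting follicle and in the fat of mouse skin, had log2 values of 9.77, 9.37 and 9.46 in baricitinib week 12 skin and 8.47, 8.44 and 8.84 in baricitinib week 0 skin. It had 7.89, 8.01 and 8.36 in vehicle week 12 skin and 8.32, 8.48 and 8.90 in vehicle week 0 skin. The baricitinib week 12 arrays lay above the other 9, and the lowest 2 of the 12 arrays were vehicle week 12 replicates 1 and 2. Group means were 9.54 ± 0.21, 8.58 ± 0.22, 8.09 ± 0.24 and 8.57 ± 0.30 in baricitinib week 12, baricitinib week 0, vehicle week 12 and vehicle week 0 skin (SD, n = 3 each).

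Baricitinib minus vehicle at week 12 was 1.45 for Bmp2 (SE 0.24, 95% confidence interval 0.93 to 1.97, limma adjusted p = 0.0247). Baricitinib week 12 minus week 0 was 0.95 (SE 0.24, 95% confidence interval 0.43 to 1.48) and did not pass (limma adjusted p = 0.0859). The change in the single mice was 1.30, 0.94 and 0.62 with baricitinib and -0.43, -0.47 and -0.54 with vehicle, so that the 3 mice of each treatment moved one way and the treatments in opposite directions. The share of all probe sets with such a pattern was not counted. The difference of the changes was 1.44 (SE 0.34, 95% confidence interval 0.70 to 2.17) and did not pass over all probe sets (limma adjusted p = 0.283).

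The call of Bmp2 against vehicle ended in a fit of only the groups compared (adjusted p = 0.0994). It was also lost without baricitinib week 12 replicate 2 or 3 or any 1 of the vehicle week 12 arrays (adjusted p 0.0524 to 0.122). Over all fits with 1 array left out, whether the call was kept or lost, the difference stayed between 1.33 and 1.59. Without both arrays of lowest correlation it was 1.33 (adjusted p = 0.0296). Baricitinib week 12 against week 0 passed when 1 probe set per gene was tested (adjusted p = 0.0470) and with the 3' to 5' difference as a covariate (1.10, adjusted p = 0.0280).

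**Figure D2:**
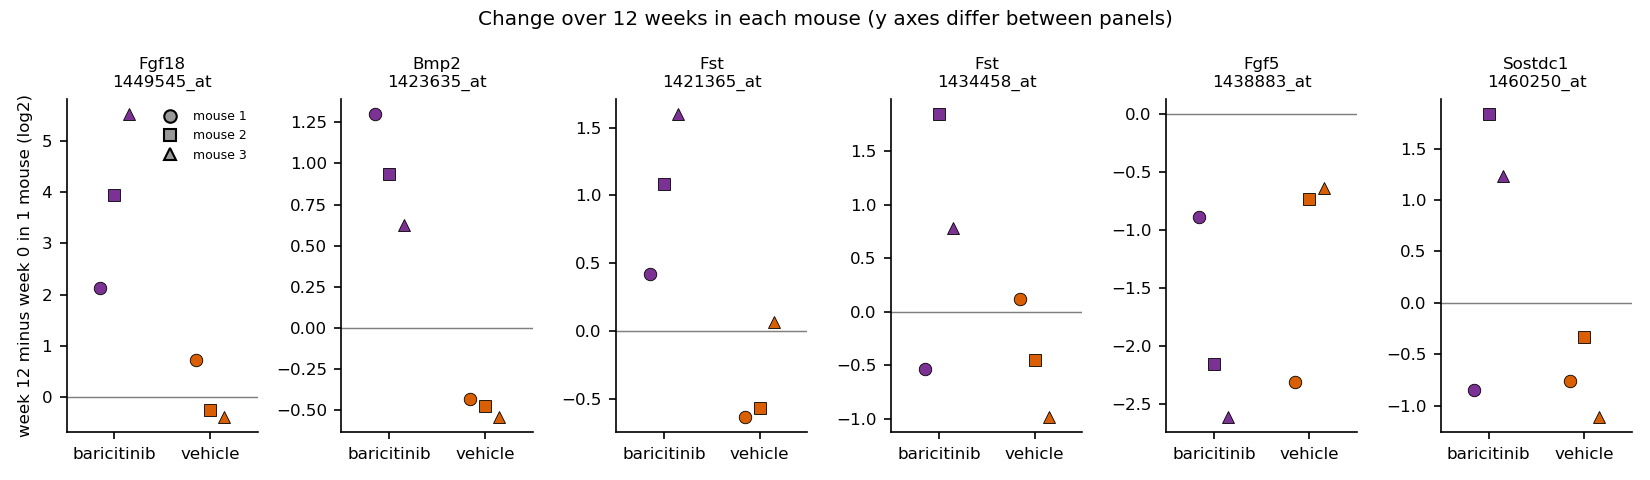
Week 12 minus week 0 in each mouse (y axis, log2 units, scaled separately in each panel) for 6 probe sets, with the 3 baricitinib mice at the left and the 3 vehicle mice at the right of each panel and symbols for mice 1 to 3 of a treatment. Bmp2 changed by 0.62 to 1.30 in baricitinib mice and by -0.54 to -0.43 in vehicle mice, and Fgf5 (1438883_at) was below 0 in all 6 mice.

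Bmp4, which is made in the dermis and dermal papilla, had log2 values of 8.51, 9.01 and 8.42 in baricitinib week 12 skin and 8.72, 8.0 and 8.71 in baricitinib week 0 skin. The vehicle arrays had 8.09, 8.43 and 8.40 at week 12 and 8.10, 8.18 and 7.10 at week 0. Groups overlapped in both comparisons of baricitinib week 12 skin, with differences of 0.17 against week 0 (95% confidence interval -0.54 to 0.89) and 0.34 against vehicle (-0.37 to 1.06). Bmp6, which helps to keep stem cells of the mouse bulge at rest, had 7.08, 7.04 and 6.98 in baricitinib week 12 skin and 7.02, 7.27 and 6.44 in baricitinib week 0 skin. Vehicle skin had 6.59, 6.24 and 7.01 at week 12 and 6.14, 6.65 and 7.41 at week 0. Its differences were 0.12 against week 0 (95% confidence interval -0.62 to 0.86) and 0.42 against vehicle (-0.32 to 1.16). The Bmp6 arrays of baricitinib week 12 skin lay closer together than those of any other group (SD 0.05, against 0.39 to 0.64 in the others).

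Among the antagonists, Fst encodes follistatin, which binds activins and, less tightly, several BMPs. The brighter probe set, 1434458_at, had log2 values of 9.86, 11.12 and 11.06 in baricitinib week 12 skin and 10.39, 9.28 and 10.27 in baricitinib week 0 skin. The values of vehicle skin were 10.11, 9.92 and 9.46 at week 12 and 9.997, 10.37 and 10.44 at week 0. Replicates 2 and 3 of baricitinib week 12 skin were the highest of the 12 arrays, and replicate 1 lay within the range of the others. Baricitinib week 12 minus week 0 was 0.70 (95% confidence interval -0.15 to 1.55, limma adjusted p = 0.527), and baricitinib minus vehicle at week 12 was 0.85 (0.0021 to 1.70, limma adjusted p = 0.457).

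The second Fst probe set, 1421365_at, had 6.43, 7.08 and 7.61 in baricitinib week 12 skin and 6.005, 5.999 and 6.010 in baricitinib week 0 skin. In vehicle skin it was 6.04, 5.64 and 6.15 at week 12 and 6.67, 6.20 and 6.08 at week 0. The baricitinib week 12 arrays lay above those of baricitinib week 0 and vehicle week 12 skin without overlap, and vehicle week 0 replicate 1 lay among them. The differences were 1.04 against week 0 (SE 0.30, limma adjusted p = 0.137) and 1.10 against vehicle (SE 0.30, limma adjusted p = 0.155). Both passed without baricitinib week 12 replicate 1 (1.34, adjusted p = 0.0288, and 1.40, adjusted p = 0.0348). That array had the lowest value of its group. Without it 1364 and 625 of all probe sets were called, against 557 and 261 with all arrays. Without both arrays of lowest correlation, the difference from vehicle passed at both Fst probe sets (1.26, adjusted p = 0.0341, for 1434458_at and 1.40, adjusted p = 0.0326, for 1421365_at). In that fit 1008 of all probe sets were called against vehicle. The 3 highest arrays of 1421365_at were the 3 with a low 3' to 5' difference, and with that difference as a covariate the differences were 0.74 against week 0 (adjusted p = 0.153) and 0.81 against vehicle (adjusted p = 0.130).

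Sostdc1 encodes an inhibitor of BMP and Wnt signals that is found in the dermal papilla and the epithelium of the mouse follicle. The brighter probe set, 1449340_at, had 9.54, 10.08 and 9.96 in baricitinib week 12 skin and 10.13, 10.37 and 10.16 in baricitinib week 0 skin. The vehicle arrays had 10.12, 9.52 and 9.90 at week 12 and 9.69, 10.09 and 10.17 at week 0. Baricitinib week 12 arrays lay just below those of baricitinib week 0 without overlap, with a difference of -0.36 (95% confidence interval -0.89 to 0.17, limma adjusted p = 0.634). Against vehicle at week 12 it was 0.02 (95% confidence interval -0.51 to 0.55), and this sign turned with median centring (-0.037). The second Sostdc1 probe set, 1460250_at, was on the other side of 0 against week 0, at 0.74 (95% confidence interval -0.64 to 2.12). Its values were 6.70, 8.33 and 9.03 in baricitinib week 12 skin and 7.55, 6.50 and 7.79 in baricitinib week 0 skin. Vehicle skin had 7.75, 6.99 and 6.03 at week 12 and 8.51, 7.33 and 7.14 at week 0, and the 3 highest arrays were again those with a low 3' to 5' difference. With that difference as a covariate the value against week 0 was -0.18.

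Nog encodes noggin, a BMP antagonist that is needed for follicles to enter growth on time. Its probe set was under the array median on all 12 arrays, with values of 4.26, 3.08 and 3.16 in baricitinib week 12 skin and 2.67, 3.61 and 2.67 in baricitinib week 0 skin. The values of vehicle skin were 3.07, 2.92 and 3.05 at week 12 and 2.62, 3.18 and 2.83 at week 0. Baricitinib week 12 replicate 1 was the highest of all, as it was for Fgf10 and the dimmer Fgf7 probe set. It was 1 of the 2 arrays with a narrow spread of values over all probe sets. The other, baricitinib week 0 replicate 2, was the highest of its group for the same probe sets (3.61 for Nog, 3.97 for Fgf10 and 3.41 for Fgf7). The part of this spread in these values was not tested. The differences were 0.52 against week 0 (95% confidence interval -0.25 to 1.29) and 0.49 against vehicle (-0.28 to 1.26).

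Over the 14 probe sets, 1 was called higher and 0 lower for baricitinib week 12 minus week 0 (limma, 4 at an unadjusted p under 0.05), where 1.24% of all probe sets were called and 12.3% were under an unadjusted p of 0.05. Of all probe sets, 0.362% were called higher and 0.875% lower. With the mouse as a block, Fgf18 remained called (adjusted p = 0.0461), while the calls over all probe sets numbered 158, against 557 without the block. The groups did not overlap at 3 higher and 2 lower probe sets of the 14, against 7.97% and 7.91% of all. For baricitinib minus vehicle at week 12, 2 of 14 were called higher and 0 lower with 4 of them under an unadjusted p of 0.05. The shares of all probe sets were 0.151% called higher, 0.429% called lower, 0.58% called in either direction and 10.9% under that unadjusted p. The groups did not overlap at 4 higher and 0 lower probe sets, against 7.44% and 9.69% of all. Of the 14 differences, 13 were above 0 against vehicle and 10 against week 0, with medians of 0.45 and 0.28, where the medians over all probe sets were 0.012 and 0.0026. The only member below 0 against vehicle was Fgf5 (1438883_at).

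For vehicle week 12 minus week 0 no probe set of the 14 was called (limma, 1 at an unadjusted p under 0.05), and 0% of all probe sets were called and 2.46% were under an unadjusted p of 0.05. The median of the 14 was -0.23 there, and the groups did not overlap at 0 higher and 1 lower probe sets, against 4.68% and 3.59% of all. The 1 was Fgf5 (1438883_at). Between baricitinib and vehicle skin at week 0, before any treatment, 0 of 14 were called and 0 were under an unadjusted p of 0.05 (1.13% of all), and the groups did not overlap at 0 higher and 1 lower probe sets (2.27% and 2.73% of all). The 1 was Fst (1421365_at). In the difference of the changes, 0 of 14 were called and 3 were under an unadjusted p of 0.05 (6.27% of all), which were Fgf18, Bmp2 and Fst (1421365_at).

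**Figure D3:**
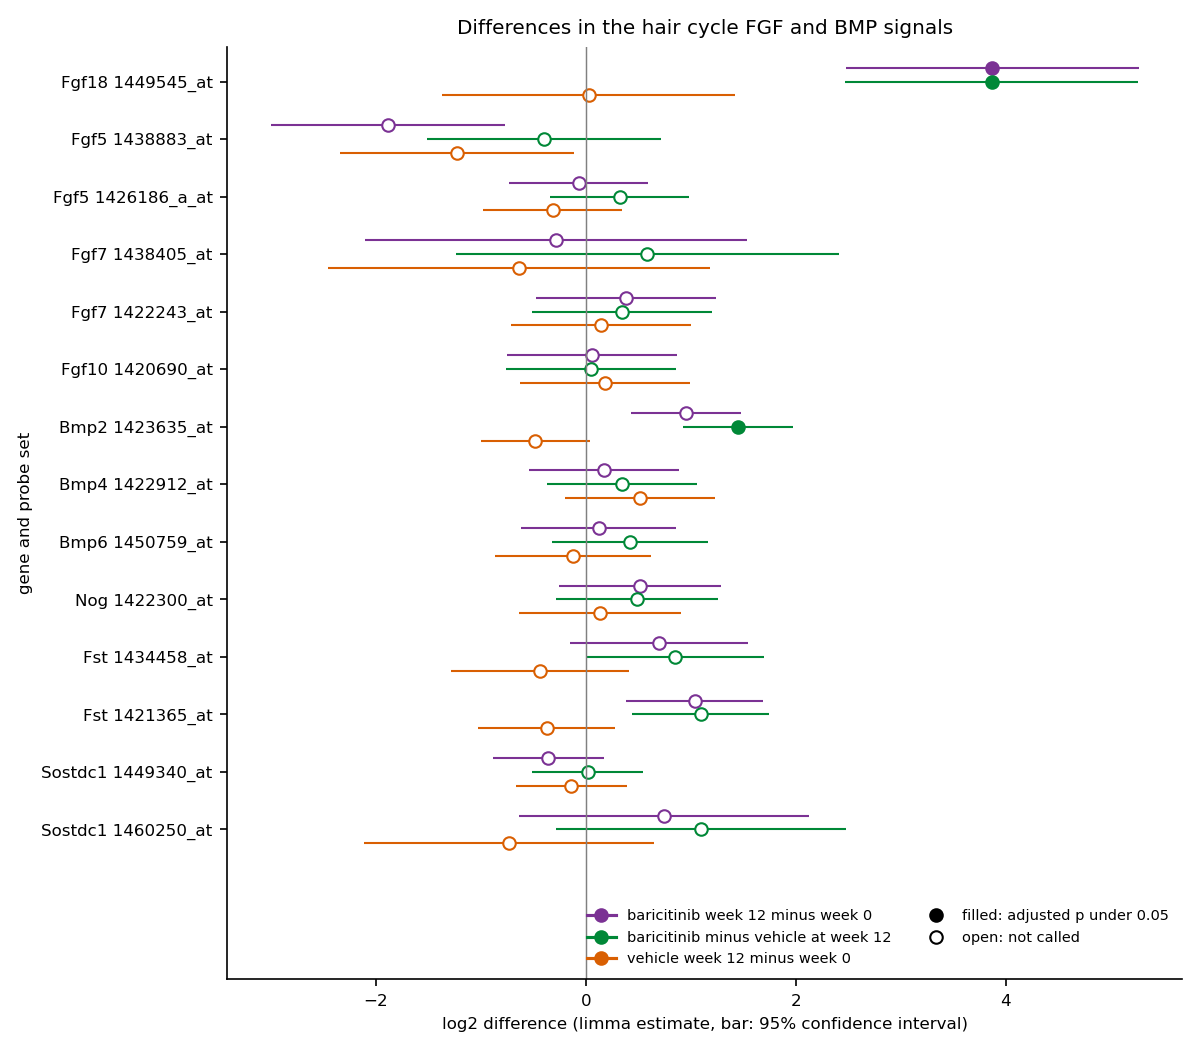
Log2 differences (x axis, limma estimates with 95% confidence intervals as bars) of the 14 probe sets (y axis) for baricitinib week 12 minus week 0, baricitinib minus vehicle at week 12 and vehicle week 12 minus week 0, with filled points at an adjusted p under 0.05. The filled points are Fgf18 at 3.87 in both comparisons of baricitinib week 12 skin and Bmp2 at 1.45 against vehicle.

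The other genes of both pathways were read from lists of ligands, receptors, targets and antagonists, with each gene at its probe set of highest mean. By such probe sets 0.5% of all genes were called higher and 1.55% lower for baricitinib week 12 minus week 0, and 0.242% higher and 0.709% lower for baricitinib minus vehicle at week 12. Of 18 other FGF ligands, 0 were called in either comparison (limma, 1 and 0 at an unadjusted p under 0.05), and their medians were 0.09 against week 0 and -0.02 against vehicle. The 1 was Fgf1 with 0.74 against week 0. Fgf18 was thus the single called ligand among the FGF genes measured. The mean log2 level of the 18 other ligands was 3.88 to 4.78 on the single arrays, under every array median (5.16 to 5.35). Low signal limits the size of a difference that could be seen for many of them.

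FGF receptors and their cofactors had no called gene of 10 in either comparison (limma, 2 and 0 at an unadjusted p under 0.05), with medians of 0.46 and 0.21. Klb, the co-receptor of endocrine FGFs that is found in fat, had the largest difference from week 0 at 1.38 (SE 0.70), followed by the receptor Fgfr4 at 1.21 (SE 0.58). The 10 feedback and target genes of FGF signalling also had no called gene (limma, 1 and 0 at an unadjusted p under 0.05), with medians of -0.00054 and 0.041. Spry1, an inhibitor of the pathway, had 0.83 against week 0 (SE 0.26, limma adjusted p = 0.181) and Dusp6, a phosphatase that FGF signals induce, -0.64 (SE 0.36).

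On the BMP side, none of 6 other BMP and GDF ligands was called in either comparison (limma, 0 and 0 at an unadjusted p under 0.05), with Bmp8a at -0.93 and Bmp5 at -0.69 against week 0. None of 12 receptors and Smads was called (limma, 2 and 1 at an unadjusted p under 0.05). The largest difference was that of the type I receptor Acvr1, with -0.95 against week 0 (SE 0.25, limma adjusted p = 0.107) and -1.10 against vehicle (SE 0.25, limma adjusted p = 0.0878), followed against week 0 by the co-receptor Rgmb with 0.68. Of 3 genes of the activin system, 0 were called in either comparison (limma, 3 and 2 at an unadjusted p under 0.05). Against week 0, Inhba and Inhbb, subunits of the activins, had -1.45 (SE 0.43) and -1.0 (SE 0.30), and Fstl3, a relative of follistatin, 0.99 (SE 0.32).

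Called genes stood among the other antagonists and the targets. Bambi, a membrane decoy receptor that BMP signals themselves induce, fell to log2 values of 7.05, 6.73 and 5.88 in baricitinib week 12 skin, against 9.07, 8.61 and 9.60 in baricitinib week 0 skin (-2.54, SE 0.47, limma adjusted p = 0.0280). It was 7.09, 7.14 and 7.72 in vehicle week 12 skin and 9.52, 8.14 and 7.63 in vehicle week 0 skin. The vehicle groups overlapped, with a difference of -1.11 in the same direction (95% confidence interval -2.15 to -0.077) that was not called. The change of Bambi with baricitinib minus that with vehicle was -1.43 (limma adjusted p = 0.804). The baricitinib week 12 arrays lay below the vehicle week 12 arrays without overlap, but baricitinib minus vehicle was not called (-0.76, limma adjusted p = 0.652). Nbl1, which encodes the secreted antagonist DAN, rose to 8.25, 8.68 and 8.43 in baricitinib week 12 skin, against 7.17, 7.26 and 6.76 in baricitinib week 0 skin (1.39, SE 0.23, limma adjusted p = 0.0163). It was 7.60, 7.80 and 7.67 in vehicle week 12 skin and 6.93, 7.40 and 7.04 in vehicle week 0 skin, a difference of 0.57 in the same direction that was not called.

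Bmper, a secreted BMP-binding protein that can hinder or help BMP signals, was higher in baricitinib week 12 skin than in vehicle week 12 skin. It had log2 values of 7.05, 6.73 and 7.34 in baricitinib week 12 skin and 4.62, 5.03 and 5.14 in vehicle week 12 skin (2.11, SE 0.33, limma adjusted p = 0.0201). The values were 6.93, 6.82 and 6.60 in baricitinib week 0 skin and 7.15, 5.84 and 6.0 in vehicle week 0 skin, so that the vehicle week 12 arrays were the ones that stood apart, and baricitinib week 12 minus week 0 was 0.26. Of the 10 other antagonists measured, these 3 were the called ones, with 1 higher and 1 lower against week 0 and 1 higher against vehicle, and the medians were 0.20 and 0.40.

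Among 8 target genes of BMP signals, 1 fell and 0 rose against week 0, and 0 were called against vehicle (limma, 2 and 1 at an unadjusted p under 0.05), with medians of -0.34 and 0.09. The fallen gene was Msx2, a homeobox factor of the hair matrix, with 5.60, 5.59 and 5.32 in baricitinib week 12 skin, against 8.56, 7.37 and 8.96 in baricitinib week 0 skin (-2.79, SE 0.50, limma adjusted p = 0.0248). It was 6.77, 7.10 and 7.44 in vehicle week 12 skin and 8.70, 7.74 and 6.58 in vehicle week 0 skin. A dimmer Msx2 probe set had -0.57 and was not called. Id1, a direct target of BMP Smads, had 1.05 against week 0 (limma adjusted p = 0.650) and 1.60 against vehicle (SE 0.74, limma adjusted p = 0.470). With the mouse as a block in the fit, Bambi, Nbl1 and Msx2 were no longer called against week 0 (adjusted p 0.0956, 0.0678 and 0.0843). Each of them also lost its call without baricitinib week 12 replicate 2 or 3 or baricitinib week 0 replicate 1 or 3, and Bambi without vehicle week 12 replicate 2 as well (adjusted p of at most 0.128 for the 3 genes). Bmper lost its call without baricitinib week 12 replicate 2 or 3 or any 1 of the vehicle week 12 arrays (0.0564 to 0.104).

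**Figure D4:**
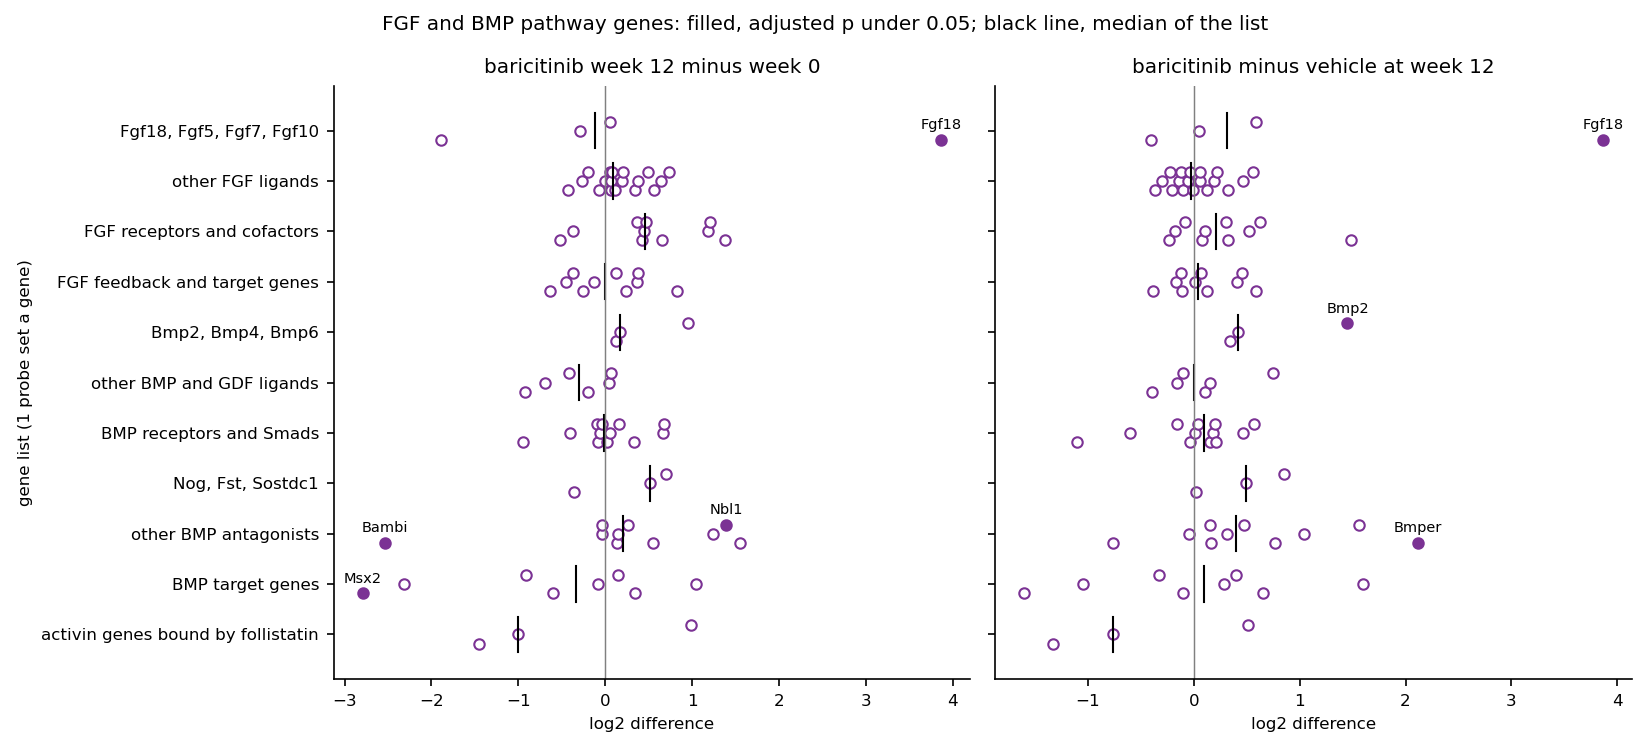
Log2 differences (x axis) of single genes, 1 probe set a gene, in lists of the FGF and BMP pathways (y axis), with baricitinib week 12 minus week 0 in the left panel and baricitinib minus vehicle at week 12 in the right panel, filled and named points for an adjusted p under 0.05 and a vertical black line for the median of a list. Fgf18, Bmp2, Nbl1 and Bmper are the filled points above 0, and Bambi at -2.54 and Msx2 at -2.79 are those below 0.

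Some markers of follicle stages and of other skin cells also differed in baricitinib week 12 skin, while many others were not called. All 9 hair matrix and anagen markers were below 0 in both comparisons of baricitinib week 12 skin, 4 were called lower against week 0 (Krt35, Krt73, Shh and Krt71) and 3 against vehicle, and their mean log2 level was 6.50 to 7.31 in baricitinib week 12 skin and 9.46 to 10.62 in baricitinib week 0 skin. In vehicle skin it was 9.05 to 9.22 at week 12 and 8.64 to 10.53 at week 0. Of 8 bulge and resting follicle markers, Krt15 (2.36) and Krt24 (3.96) rose against week 0, and both rose against vehicle as well. Of the 8, 6 were above 0 against week 0 (median 0.61) and 8 against vehicle (median 0.64), with a mean level of 8.84 to 9.46 in baricitinib week 12 skin and 7.91 to 8.44, 7.70 to 8.13 and 8.27 to 8.46 in baricitinib week 0, vehicle week 12 and vehicle week 0 skin. Of 10 dermal papilla markers, Corin fell (-3.68 against week 0 and -2.78 against vehicle) and was the only one called. Others went the other way: 3 of the 10 were above 0 against week 0 (up to 1.25, median of the list -0.49) and 6 of the 10 against vehicle (up to 1.52, median 0.11). At an unadjusted p under 0.05 (limma), 2 were higher and 5 lower against week 0, and 2 were higher and 2 lower against vehicle, Corin included. The mean level of the list was 5.15 to 5.70, 5.77 to 6.60, 5.10 to 5.89 and 5.18 to 5.95 in baricitinib week 12, baricitinib week 0, vehicle week 12 and vehicle week 0 skin.

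All 6 adipocyte markers were above 0 in both comparisons, of which Cidec was called against week 0 (2.76), and the mean level was 10.59 to 11.07 in baricitinib week 12 skin and 8.24 to 9.69 in baricitinib week 0 skin. The vehicle arrays had 8.63 to 9.79 at week 12 and 8.52 to 9.20 at week 0. Of 5 T cell markers, Cd8a was called lower in both comparisons (-4.29 and -4.39). The other 4 were not called and lay on both sides of 0, with list medians of -0.083 against week 0 and -0.037 against vehicle, 2 of 5 above 0 against week 0 and 1 of 5 against vehicle. The mean level of the list was 6.16 to 7.27 in baricitinib week 12 skin and 7.12 to 8.11 in baricitinib week 0 skin, with 7.31 to 8.16 in vehicle week 12 skin and 7.98 to 8.497 in vehicle week 0 skin. No marker of melanocytes, skeletal muscle, dermal fibroblasts, macrophages or endothelial cells was called in either comparison (limma, with 3, 1, 2, 2 and 1 at an unadjusted p under 0.05 against week 0). With the mouse as a block in the fit, Krt15, Krt24, Krt71, Shh and Cidec were no longer called against week 0 (adjusted p 0.0657, 0.0657, 0.0666, 0.0603 and 0.0799). With 1 array left out, these 5 each lost that call for at least 1 array, and against vehicle Krt35, Shh, Krt15, Krt24, Corin and Cd8a did so. The part of follicle stage and of cell makeup in the Fgf18 and Bmp2 values was not tested.

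The genes whose levels followed Fgf18 most closely over the 12 arrays were Crp (Pearson's r 0.98), Pccb (0.97), Prxl2b (0.95), Igfbp3 (0.95) and Cck (0.95). Crp encodes C-reactive protein, Pccb a subunit of propionyl-CoA carboxylase, Igfbp3 a binding protein of insulin-like growth factors and Cck the peptide cholecystokinin. Those nearest to Bmp2 were Rps6 (0.93), Pgrmc1 (0.93), Mmel1 (0.90), Mgst1 (0.90) and B230217C12Rik (0.89). The r values are a description, since the arrays of a group share their treatment and time. Among these 10 genes Crp, Pccb, Igfbp3 and Cck were called against week 0, by 2.09, 1.23, 2.12 and 2.53. Crp (log2 values 1.77 to 4.63), Mmel1 (2.62 to 3.85) and B230217C12Rik (3.32 to 4.82) were under the array median on every array. Cck was so outside baricitinib week 12 skin (4.14 to 4.79). Low signal limits what their differences and r values can show. Between Fgf18 and the other 9 genes, r over the 12 arrays was highest with Bmp2 (0.71) and Fst (0.67) and lowest with Fgf5 (-0.54).

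**Figure D5:**
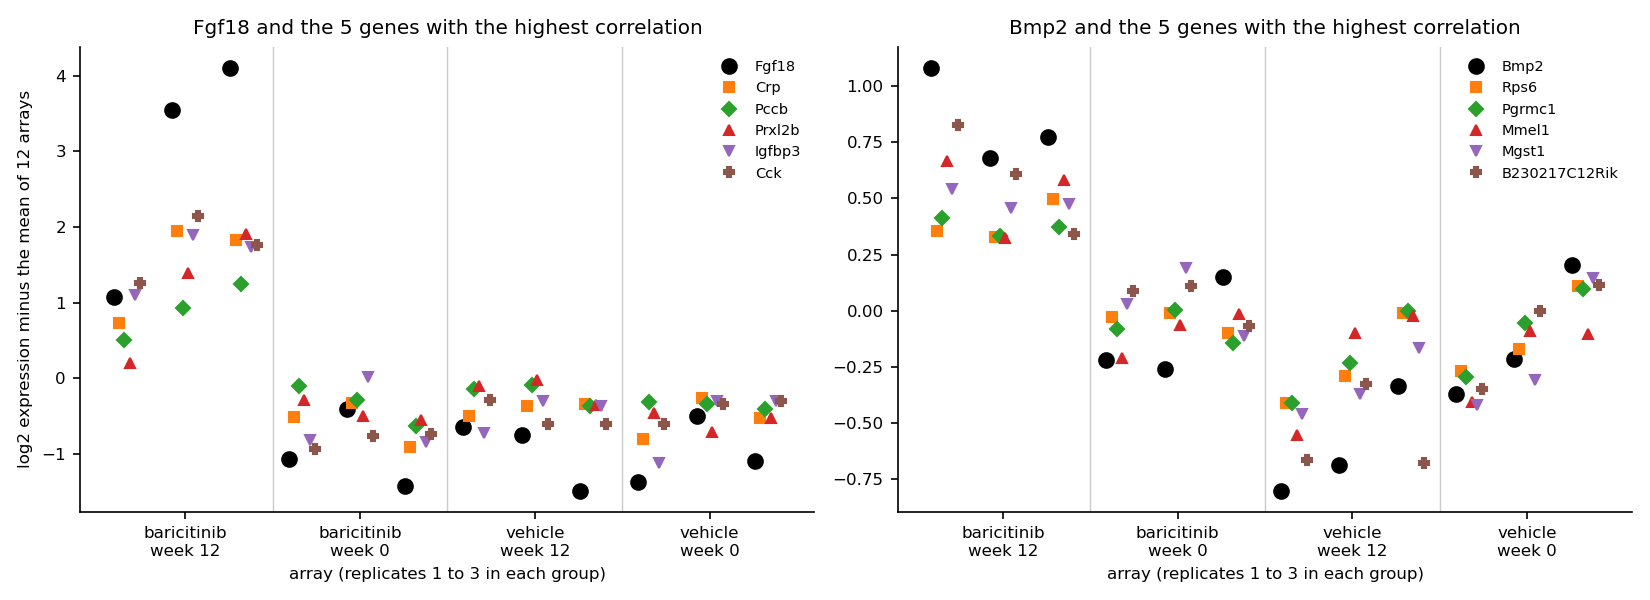
Log2 expression minus the gene's mean over the 12 arrays (y axis) for Fgf18 and Bmp2, each with the 5 genes of highest correlation, with arrays along the x axis by group and replicate and 1 symbol per gene. On the left Fgf18 and its 5 genes lie above their means on the 3 baricitinib week 12 arrays, and on the right each of the Bmp2 genes has its lowest value on 1 of the vehicle week 12 arrays and its 3 highest on the baricitinib week 12 arrays, while vehicle week 12 replicate 3 lies within the range of the vehicle week 0 arrays for Bmp2.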

How the data were processed

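RNA of whole skin biopsies was amplified, biotin-labelled and hybridised to Affymetrix mouse arrays. The authors normalized them by RMA (version not given in the sources used here) and deposited log2 values, which were used unfiltered. They left arrays that failed quality control out of their analysis, among them 1 of baricitinib at each time and 1 control array at baseline. Here 3 arrays stand in each group, so these may be included. RMA aligns the distributions of all arrays at the level of single probes, so values are relative, and 3 arrays a group limit the precision. The probe set values still differed between arrays, with medians of 5.16 to 5.35 and SDs of 2.56 to 2.85. Without 64 control probe sets, 45037 were tested, of which 34945 carried 1 gene symbol, 932 several and 9160 none.

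Group means were fitted with limma 3.58.1 (R 4.3.3, tested on simulated data). Benjamini-Hochberg adjustment covered every probe set, and calls needed an adjusted p under 0.05. Figures used matplotlib 3.10.9 in Python 3.11.15. The sample descriptions carry the same number at both weeks, taken as the number of the mouse. The deviations of such pairs from the group means correlated by -0.36, -0.51 and 0.47 with baricitinib and 0.44, -0.13 and 0.49 with vehicle. Named were the 10 genes, in each other list the called genes (at most 4) or else the 2 of largest change, and the 5 genes most like Fgf18 and Bmp2. Fgf1, Id1 and Fstl3 were named after their values were seen. Members and lists were chosen with earlier results of these data known. Other settings tried were a dim probe set filter, a level-dependent prior variance, a block for the mouse, separate fits of each pair of groups, cyclic loess and median centring, weights per array, the leading or averaged probe set of a gene, and leaving out single arrays. The 3' to 5' covariate and leaving out both arrays of lowest correlation were added after seeing the data.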

Additional observations from a re-analysis of the deposited data

Results flagged for a closer look

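Of the 10 genes, Bmp2 was the one whose mice moved in opposite directions between the treatments. It changed by 1.30, 0.94 and 0.62 in the 3 baricitinib mice and by -0.43, -0.47 and -0.54 in the 3 vehicle mice, so that the change with baricitinib exceeded the change with vehicle by 1.44 on the log2 scale. Over all probe sets this difference did not pass the test (limma adjusted p = 0.283, and 0.504 with the mouse as a block). How many of all probe sets moved in opposite directions in this way was not counted.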

How the results depend on the processing

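Over all alternatives, 1194 of 1385 values of single genes kept their direction and their side of the threshold, 109 lost a call, 33 gained one and 49 changed sign. These values include pathway and marker genes outside the 10. Many were not called to begin with and had no call to lose, so the total does not measure how stable the calls were. The causes of these changes were not tested. Called probe sets of the 10 genes numbered 1 for baricitinib week 12 minus week 0 and 2 for baricitinib minus vehicle at week 12. Fits of only the groups compared gave 0 for both. Array weights, whose estimation stopped before it converged, gave 5 and 5, 2 for vehicle week 12 minus week 0, 1 for baricitinib minus vehicle at week 0 and 4 for the difference of the changes, with 11277 and 11205 calls over all probe sets in the first 2 comparisons, against 557 and 261. One probe set per gene or the mean of the probe sets gave 2 against week 0, and the 3' to 5' covariate gave 3. Without both arrays of lowest correlation, 4 were called against vehicle and 1 in the difference of the changes. With 1 array left out, the counts ranged between 0 and 2 against week 0, 0 and 3 against vehicle and 0 and 1 for the difference of the changes. Calls over all probe sets ranged in these fits between 70 and 1364 against week 0 and 32 and 625 against vehicle. For the difference of the changes they ranged between 0 and 55. The mouse as a replicate block pairs the arrays of one animal. As a fixed block it left 1 called against week 0 (Fgf18, adjusted p = 0.0461) with 158 calls over all probe sets. As a random block (correlation -0.00388) it kept the direction and the side of the threshold of all 60 single-gene values that were followed. Calls over all probe sets then numbered 553 against week 0, where 557 were called without the block. Fits of only the groups compared gave 97 and 55 calls over all probe sets, leaving out both arrays of lowest correlation 860 and 1008, and the 3' to 5' covariate 1763 and 792.

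The sign of Fgf10 turned against vehicle with cyclic loess (-0.0091), median centring (-0.0036), array weights (-0.23) and both arrays of lowest correlation left out (-0.40), and against week 0 with median centring (-0.0017), array weights (-0.11) and both arrays left out (-0.20). Sostdc1 (1449340_at) turned to -0.037 against vehicle with median centring and to 0.19 against week 0 with the mean of the probe sets, which gave 0.049 for Fgf7 (1438405_at). Array weights turned Fgf18 to -0.29 for vehicle week 12 minus week 0 and to -0.65 at week 0. Without both arrays of lowest correlation, Fgf7 was -0.15 (1422243_at) and -0.093 (1438405_at) against vehicle, and Fgf18 was -0.26 at week 0. The 3' to 5' covariate turned Bmp4 to -0.080, Fgf5 (1426186_a_at) to 0.064, Fgf7 (1438405_at) to 0.66 and Sostdc1 (1460250_at) to -0.18 against week 0, and Bmp2 to -0.018 at week 0.

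With 1 array left out, the differences from week 0 ranged between -0.40 and 0.32 for Fgf10, -0.11 and 0.77 for Fgf7 (1422243_at), -0.96 and 0.41 for Fgf7 (1438405_at), -0.066 and 0.29 for Bmp4, -0.11 and 0.30 for Bmp6, and -0.26 and 0.18 for Fgf5 (1426186_a_at). Those from vehicle at week 12 ranged between -0.40 and 0.32 for Fgf10, -0.15 and 0.72 for Fgf7 (1422243_at), -0.34 and 1.35 for Fgf7 (1438405_at), and -0.15 and 0.18 for Sostdc1 (1449340_at). Vehicle week 12 minus week 0 ranged between -0.16 and 0.29 for Fgf18. Baricitinib minus vehicle at week 0 ranged between -0.26 and 0.26 for Fgf18 and -0.11 and 0.18 for Bmp2. Probe sets under the array median on all arrays (Nog, Fgf10 and the dimmer ones of Fgf5 and Fgf7), and Fgf18 outside baricitinib week 12 skin, lie where low signal limits the size of a difference that RMA can show. The same holds for Fgf5 (1438883_at) at week 12, where it was under the array median on every array of both treatments.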
